A study of Mus musculus with 4 samples.

Results

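The genes described here encode the machinery of oxidative phosphorylation: the subunits of respiratory complexes I to IV and of the ATP synthase (complex V), from both the nuclear and the mitochondrial genome. They were chosen by name, as protein-coding genes whose symbols carry the prefixes mt-, Nduf, Sdh, Uqcr, Cox4 to Cox8 and Atp5, without the muscle and brown fat isoforms Cox7a1 and Cox8b. The rule found 95 genes among 38293 gene rows, of which 82 are nuclear and 13 mitochondrial. Of these, 89 genes (77 nuclear and 12 mitochondrial) had enough reads to be tested. The other 6 (mt-Nd4l, Cox4i2, Cox6a2, Cox6b2, Cox7b2 and Cox8c) are given by their counts. The rule leaves out 3 subunits with other symbols, Cyc1, Ndufab1 and Usmg5, whose values are given where they bear on a result. One further annotated identifier, a second one for Atp5o, had no row.

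RNA was sequenced from 4 mammary tumours of FVB mice with the MMTV-Neu transgene, of which 2 lacked AXL (AXL KO) and 2 were wild type (WT). All 4 tumours arise from the same transgene, the Neu (Erbb2) oncogene driven by the mouse mammary tumour virus promoter, so no normal gland and no tumour of another origin stands beside them. AXL is a receptor tyrosine kinase. Neither the age of the mice nor the deleted part of Axl is given in the labels. Nothing there says that replicates came from separate mice, so intervals and p-values rest on the spread between these samples, which may be technical. The fit shares information on this spread between genes, so an interval need not follow the spread of its own gene.

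Respiratory complexes I, III and IV pump protons across the inner mitochondrial membrane as electrons pass from NADH and ubiquinol to oxygen, complex II feeds in electrons from succinate without pumping, and ATP synthase uses the proton gradient to make ATP. All subunits of complex II and most subunits of the others are encoded in the nucleus and imported. The mitochondrial genome encodes a small set of hydrophobic subunits of complexes I, III, IV and V, transcribed as long precursors that are cut into single RNAs, so both genomes must supply parts of the same complexes.

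The libraries held 19161051 and 33131739 reads in genes in AXL KO replicates 1 and 2, against 21276336 and 18929743 in WT replicates 1 and 2. All pairs of values below are given in that order, replicate 1 before replicate 2, as CPM: counts scaled to a common library total, after TMM factors that even out differences in library composition. Axl itself had 4.75 and 4.89 CPM in AXL KO tumours, against 61.8 and 35.2 CPM in WT tumours, a log2 difference of −3.33 ± 0.35 (SE) that matched the labels. All 8 markers of luminal mammary epithelium were detected in every library, with Epcam at 1317 and 1342 CPM in AXL KO tumours and 1330 and 966 CPM in WT tumours, and Krt19 lowest at 6.30 and 9.24 CPM in AXL KO tumours and 3.27 and 8.17 CPM in WT tumours. WT replicate 2 stood apart from the other 3 libraries: the chi-square statistic per degree of freedom between library pairs was 104 to 120 for the pairs that include it, and 24.2 to 44.2 for the others. The sample description of AXL KO replicate 2 starts with another prefix than those of the other 3, and what the prefix stands for is not stated.

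No tested oxidative phosphorylation gene passed the test between AXL KO and WT tumours. Axl itself did not pass it either, so the absence of calls does not show that levels were equal. The summed levels of nuclear and of mitochondrial genes differed more between the 2 tumours of a genotype than between the genotype means. Of the 89 tested genes, 57 had a positive and 32 a negative log2 difference (AXL KO minus WT), with a median of 0.04 and a range from −0.60 for Atp5a1 to 0.33 for Ndufa3. The median over all 14330 tested genes was −0.0019.

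In edgeR's quasi-likelihood test, 0 of the 89 genes were called at an adjusted p under 0.05 (Benjamini-Hochberg, over every gene tested), and the adjusted p was 0.9997 for each. The same test called 0 of 14330 genes (0%), Axl included. At an unadjusted p under 0.05 it took 0 of the 89 genes, against 314 of all genes (2.19%). The DESeq2 Wald test called 0 of the 89 genes and 16 of all genes (0.112%), among them Axl with an adjusted p of 2.235e-13. At an unadjusted p under 0.05, DESeq2 and limma-voom also took 0 of the 89 genes. The smallest unadjusted p among them was 0.129 by edgeR, for Ndufa3. Without WT replicate 1 the AXL KO tumours were set against WT replicate 2 alone, and the median log2 difference of the nuclear members was −0.06. In the fit of all 4 libraries, standard errors ran from 0.16 to 0.92 on the log2 scale. The narrowest 95% interval reached 0.41 to either side of its estimate. For 24 nuclear genes the interval lay within a 1.5-fold difference in either direction. The absence of calls does not show that the remaining genes were equal.

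Both AXL KO tumours lay above both WT tumours for 12 of the 89 genes (13.5%), close to the 14.7% of all tested genes. Both lay below for 3 genes (3.37%), against 14.5% of all tested genes. The groups overlapped for the other 74. WT replicate 1 was the lowest library for 66 of the 89 genes, WT replicate 2 the highest for 45 and AXL KO replicate 1 the highest for 35. The 2 WT tumours were thus at opposite ends for many of these genes, with the AXL KO tumours between or among them.

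**Figure D1:**
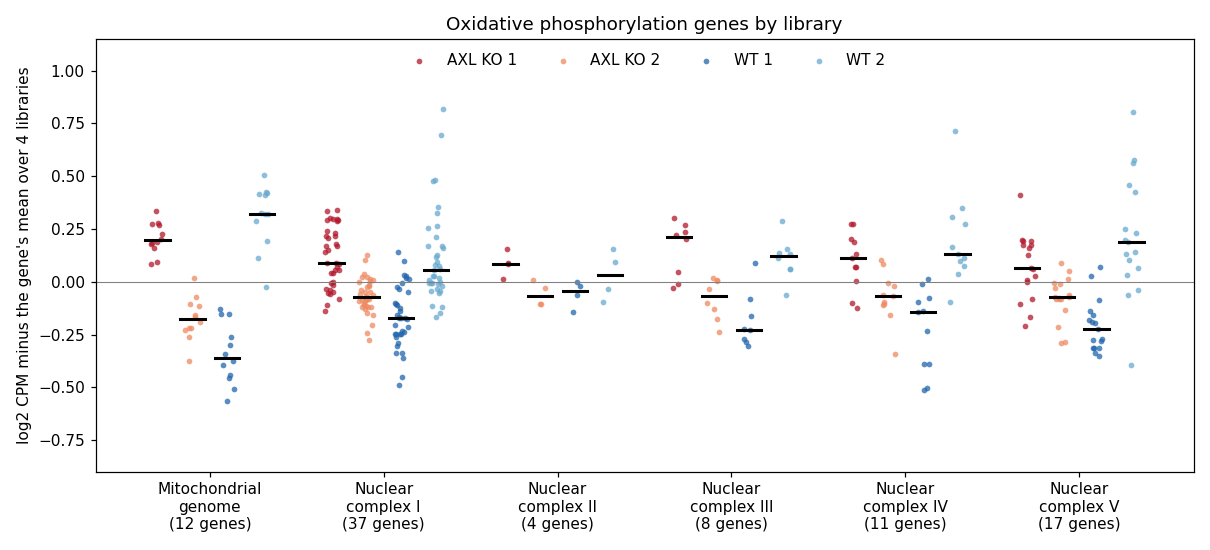
Each point is 1 gene's log2 CPM in 1 library minus that gene's mean over the 4 libraries, for the mitochondrial genome and nuclear complexes I to V, with AXL KO libraries left of WT libraries and black bars for medians. In every group the median of WT replicate 1 is below 0 and that of WT replicate 2 above it, and AXL KO replicate 1 is above and AXL KO replicate 2 below 0.

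Summed over the 82 nuclear genes, the level was 12440 and 11290 CPM in AXL KO tumours, against 10540 and 14410 CPM in WT tumours. The sums averaged 11860 ± 812 CPM in AXL KO and 12480 ± 2737 CPM in WT (SD, n = 2 each), and both AXL KO values lay between the 2 WT values. The members on chromosomes 2, 15 and 18, described below, were singled out after their values were seen. Without them the sums were 9720 and 8721 CPM in AXL KO tumours, against 8119 and 9622 CPM in WT tumours. AXL KO replicate 1 was then the highest library, and the AXL KO mean (9221 CPM) exceeded the WT mean (8871 CPM). With 2 samples a group, the smallest two-sided p that an exact permutation test allows is 0.333, so no single sum could pass a threshold of 0.05. The median log2 difference over the 77 tested nuclear genes was 0.05, with 51 positive and 26 negative. It was −0.04 without AXL KO replicate 1, 0.12 without AXL KO replicate 2 (the values within the first prefix), −0.06 without WT replicate 1 and 0.20 without WT replicate 2. Its sign therefore depended on which tumour was included. In bulk tumour RNA, fewer cells of a type and less RNA per cell cannot be told apart.

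Complex I takes electrons from NADH and is the largest of the complexes. Its 37 nuclear genes, grouped by symbol and so including Ndufa4 and Ndufa4l2, summed to 3162 and 2761 CPM in AXL KO tumours and 2570 and 3286 CPM in WT tumours. The groups overlapped here too, and 25 of the 37 genes had a positive difference, with a median of 0.04. The subunits of the Ndufs and Ndufv series include the catalytic core that holds the flavin and the iron-sulphur clusters. Of these 11 genes, 6 had a positive difference, the median was 0.00177, and 0 had both AXL KO tumours above both WT tumours.

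Among the 24 accessory subunits of the Ndufa, Ndufb and Ndufc series, which surround and stabilise the core, 18 had a positive difference and the median was 0.14. Both AXL KO tumours were above both WT tumours for 7 of them (29.2%, against 14.7% of all tested genes) and below for 0 (against 14.5%). The largest difference was that of Ndufa3 (chromosome 7, 3617373 to 3620327 on the plus strand, GRCm38), which had 67.4 and 56.6 CPM in AXL KO tumours, against 49.4 and 49.2 CPM in WT tumours. The groups did not overlap, and the log2 difference was 0.33 ± 0.18 (SE). Ndufa1 had 48.3 and 36.8 CPM in AXL KO tumours, against 33.9 and 35.1 CPM in WT tumours, a log2 difference of 0.30 ± 0.22. Here AXL KO replicate 1 stood above the other 3 libraries, and without it the difference was 0.09. Ndufc1 had 42.8 and 40.7 CPM in AXL KO tumours, against 31.6 and 37.3 CPM in WT tumours, a log2 difference of 0.28 ± 0.19. The other 4 accessory genes without overlap were Ndufa12, Ndufa13, Ndufb6 and Ndufb8, with differences between 0.06 and 0.22. Ndufab1, the acyl carrier protein that is also a complex I subunit, had 52.8 and 48.6 CPM in AXL KO tumours and 45.6 and 51.4 CPM in WT tumours.

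At the other end of the range, the accessory subunit Ndufa2 had 64.3 and 55.0 CPM in AXL KO tumours, against 47.5 and 118 CPM in WT tumours. Its negative log2 difference of −0.47 ± 0.44 came with a high value in WT replicate 2 alone, while WT replicate 1 was the lowest of the 4 libraries.

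Complex II, succinate dehydrogenase, also serves the TCA cycle and has no mitochondrially encoded subunit. Its 4 genes summed to 682 and 618 CPM in AXL KO tumours and 618 and 643 CPM in WT tumours, a narrow spread with overlap. Sdha, the flavoprotein that binds succinate, had 321 and 296 CPM in AXL KO tumours, against 299 and 296 CPM in WT tumours. AXL KO replicate 1 was the highest and the other 3 libraries were nearly equal, for a log2 difference of 0.05 ± 0.18. Sdhc, one of the 2 membrane anchors, had 124 and 117 CPM in AXL KO tumours, against 117 and 109 CPM in WT tumours. Its groups were ordered without overlap, but AXL KO replicate 2 and WT replicate 1 were less than 1 CPM apart, and the log2 difference was 0.10 ± 0.16. Sdhb, the iron-sulphur subunit, had 74.8 and 68.8 CPM in AXL KO tumours, against 70.9 and 82.5 CPM in WT tumours, with overlap.

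Complex III passes electrons from ubiquinol to cytochrome c. Its 8 nuclear genes summed to 1255 and 1047 CPM in AXL KO tumours and 1005 and 1215 CPM in WT tumours, with 4 positive and 4 negative differences, and the groups overlapped for all 8. Uqcrc2, a core subunit and the one with the most reads, had 290 and 213 CPM in AXL KO tumours, against 206 and 264 CPM in WT tumours. The small subunits Uqcr10, Uqcr11 and Uqcrb had log2 differences of 0.23 ± 0.21, 0.16 ± 0.20 and 0.17 ± 0.24. In these 3 genes AXL KO replicate 1 was the highest and WT replicate 1 the lowest library. Uqcrfs1, the Rieske iron-sulphur protein, differed by −0.06 ± 0.18.

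Complex IV, cytochrome c oxidase, reduces oxygen. Its nuclear genes summed to 2112 and 1914 CPM in AXL KO tumours and 1735 and 2264 CPM in WT tumours, with overlap. Cox4i1 (chromosome 8, 120668222 to 120674207 on the plus strand) encodes the common form of subunit 4 and had 302 and 325 CPM in AXL KO tumours, against 333 and 362 CPM in WT tumours. Both AXL KO tumours were below both WT tumours, and the log2 difference was −0.15 ± 0.19. Cox6a1, the form of subunit 6a found outside muscle, had 261 and 280 CPM in AXL KO tumours, against 259 and 244 CPM in WT tumours. It was the one tested complex IV gene with both AXL KO values above both WT values, by a log2 difference of 0.11 ± 0.18. The difference was 0.13 ± 0.21 for Cox6b1 and 0.11 ± 0.18 for Cox8a, with overlap in both.

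Several complex IV subunits exist in a general form and a form restricted to a tissue or to low oxygen. The restricted forms among the chosen genes had few reads. Cox7a1 and Cox8b, which the choice left out, were detected, with 17.8 and 7.48 CPM in AXL KO replicate 1, where each was highest. Cox4i2, the form of subunit 4 known from lung and hypoxic cells, had 4 and 12 counts in AXL KO tumours, against 7 and 3 counts in WT tumours. The heart and muscle form Cox6a2 had 0 and 2 counts in AXL KO tumours, against 1 and 0 in WT tumours, and the testis form Cox6b2 had 14 and 11 counts in AXL KO tumours, against 9 and 2 in WT tumours. Cox7b2 had 1 count in each AXL KO library and 0 in each WT library, and Cox8c had 0 in all 4. A count of 3, taken as the limit that a count of 0 allows, equals 0.16 and 0.09 CPM in the AXL KO libraries and 0.14 and 0.157 CPM in the WT libraries, counting error only. Each general form, by contrast, was above 100 CPM in every library: Cox7b, for example, had 254 and 194 CPM in AXL KO tumours, against 147 and 267 CPM in WT tumours.

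Ndufa4 carries a complex I symbol and is now placed in complex IV, but the complex I sum above includes it and the complex IV sum does not. Its levels were 211 and 168 CPM in AXL KO tumours, against 144 and 218 CPM in WT tumours. Ndufa4l2, its low-oxygen counterpart, had 1.01 and 0.990 CPM in AXL KO tumours, against 1.17 and 1.05 CPM in WT tumours. Per kilobase of exon the general form averaged 137 CPM in AXL KO and 131 CPM in WT tumours, and the low-oxygen form 0.915 CPM in AXL KO and 1.01 CPM in WT tumours. Ndufa4l2 was lower in both AXL KO tumours than in both WT tumours, with a log2 difference of −0.15 ± 0.45 and an interval from −1.29 to 0.999.

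ATP synthase contributed the most reads of the nuclear complexes. Its 17 genes summed to 5228 and 4951 CPM in AXL KO tumours and 4612 and 7004 CPM in WT tumours. Atp5b (chromosome 10, 128083273 to 128090391 on the plus strand), the catalytic beta subunit of the F1 head, had 1480 and 1485 CPM in AXL KO tumours, against 1386 and 1539 CPM in WT tumours. Atp5a1 (chromosome 18, 77773729 to 77782869 on the plus strand), the alpha subunit that alternates with beta in the same ring, had 1273 and 1208 CPM in AXL KO tumours, against 1183 and 2570 CPM in WT tumours. The beta subunit was thus even across the 4 libraries, and the alpha subunit was high in WT replicate 2 alone. The log2 difference was −0.60 ± 0.46 for Atp5a1 and 0.02 ± 0.30 for Atp5b. Without WT replicate 2, that of Atp5a1 was 0.07. Per kilobase of exon, Atp5a1 averaged 396 CPM in AXL KO and 599 CPM in WT tumours, and Atp5b 350 CPM in AXL KO and 345 CPM in WT tumours.

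The gamma subunit Atp5c1, the central shaft of the enzyme, followed Atp5a1, with 370 and 338 CPM in AXL KO tumours, against 323 and 584 CPM in WT tumours. Its log2 difference of −0.36 ± 0.33 became 0.13 without WT replicate 2. The membrane ring that turns in the proton current is made of subunit c, encoded by 3 genes that give the same mature protein. Atp5g3 had 306 and 328 CPM in AXL KO tumours, against 299 and 460 CPM in WT tumours. Atp5g1 had 86.0 and 87.9 CPM in AXL KO tumours, against 72.7 and 84.5 CPM in WT tumours, and Atp5g2 had 55.3 and 45.3 CPM in AXL KO tumours, against 45.8 and 81.6 CPM in WT tumours. Of these 3, only Atp5g1 was without overlap, with a log2 difference of 0.15 ± 0.17. Atp5k, a membrane subunit, had 91.4 and 86.9 CPM in AXL KO tumours, against 76.2 and 81.6 CPM in WT tumours, also without overlap, and differed by 0.18 ± 0.16. Usmg5, a small membrane subunit, had 72.2 and 61.7 CPM in AXL KO tumours, against 49.3 and 78.3 CPM in WT tumours.

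**Figure D2:**
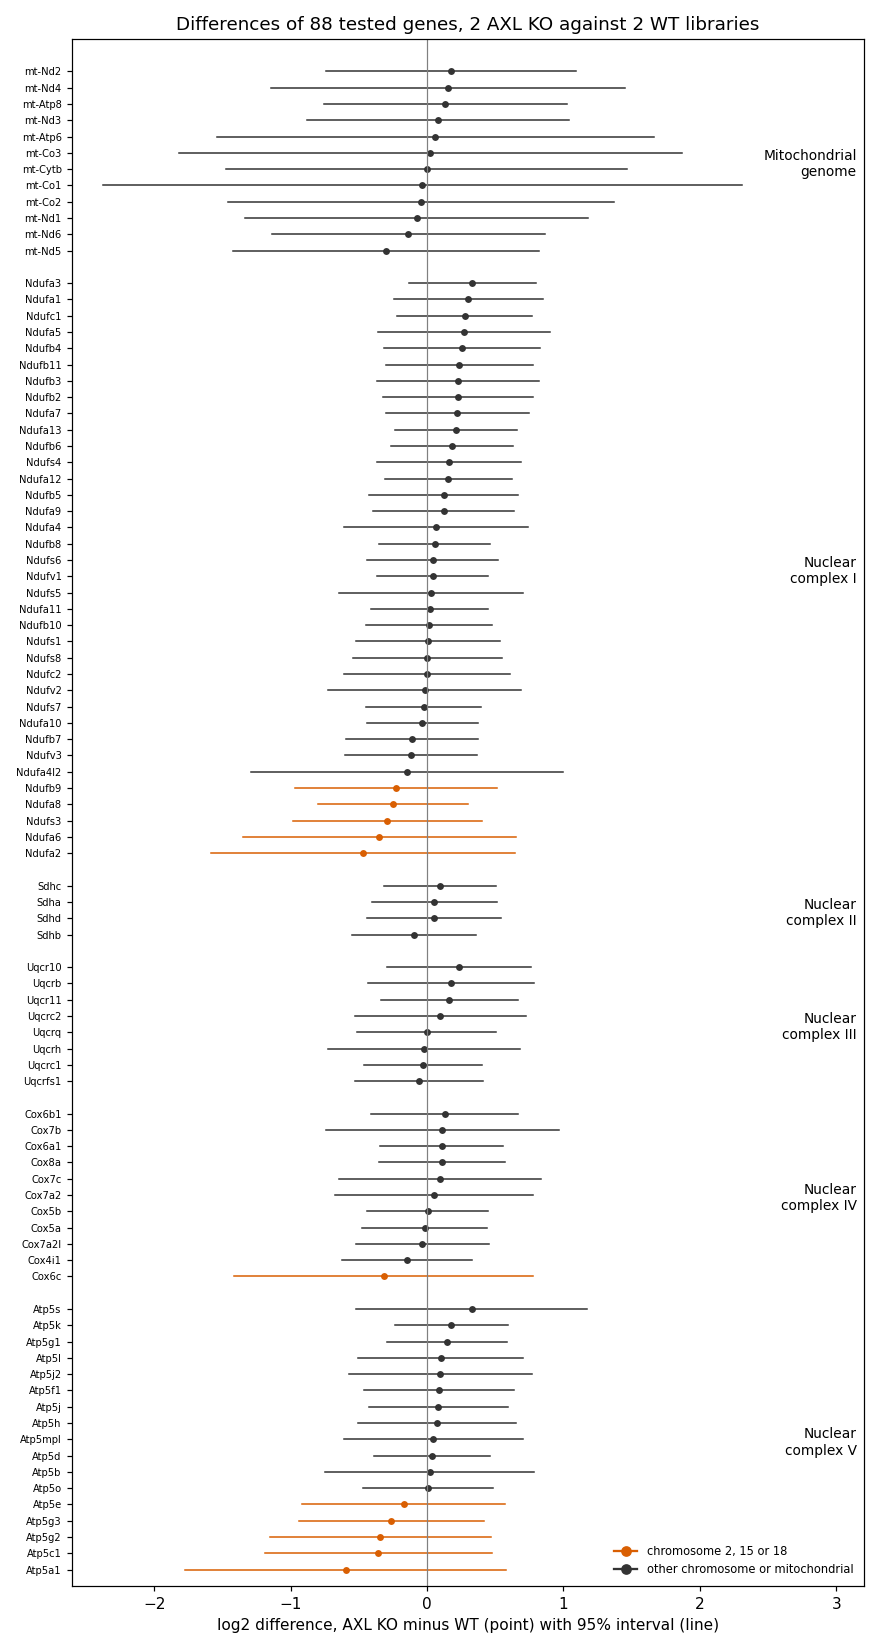
Points give the log2 difference of 88 of the 89 tested genes, AXL KO minus WT, and lines its 95% interval from the edgeR fit, grouped by mitochondrial genome and nuclear complex. Every interval shown includes 0, the widest interval is that of mt-Co1, and the genes of chromosomes 2, 15 and 18 (orange) lie at the negative end of complexes I, IV and V.

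The genes of the mitochondrial genome gave several times more reads than all the nuclear genes together. They summed to 53500 and 40040 CPM in AXL KO tumours, against 37550 and 55930 CPM in WT tumours. The ratio of mitochondrial to nuclear sums was 4.30 and 3.55 in AXL KO tumours and 3.56 and 3.88 in WT tumours. AXL KO replicate 1 had the highest ratio, and the other 3 lay between 3.55 and 3.88. The median log2 difference over the 12 tested mitochondrial genes was 0.01, with 6 positive and 6 negative. It was −0.24 without AXL KO replicate 1, 0.18 without AXL KO replicate 2, −0.30 without WT replicate 1 and 0.37 without WT replicate 2, so that, as in the nucleus, its sign followed the choice of tumours.

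These genes were read from neighbouring and in places overlapping sequence, which bears on how reads could be assigned. The 3 pairs are shown because they share bases: in each line the shared stretch is in capitals, 5′ to 3′ along the gene's own strand, from the GENCODE M21 transcripts (GRCm38). The first 2 pairs lie on the same strand, where mt-Nd4l runs into mt-Nd4 at chrM:10144-10196 over 7 bases and mt-Atp8 runs into mt-Atp6 at chrM:7917-7979 over 43 bases. The third pair, mt-Nd5 and mt-Nd6 at chrM:13536-13581, is on opposite strands, with 14 shared bases at both 3′ ends.
end of mt-Nd4l: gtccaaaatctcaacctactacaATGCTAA
start of mt-Nd4: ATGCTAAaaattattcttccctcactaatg
end of mt-Atp8: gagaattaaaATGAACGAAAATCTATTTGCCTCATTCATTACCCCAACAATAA
start of mt-Atp6: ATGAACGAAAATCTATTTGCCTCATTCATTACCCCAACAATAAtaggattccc
end of mt-Nd5: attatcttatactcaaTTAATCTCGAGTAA
end of mt-Nd6: tttattattatcgagaTTACTCGAGATTAA

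Reads on shared bases cannot be given to 1 gene of a pair, and without a stated strand setting reads from opposite strands cannot be told apart. mt-Nd4l had 0 counts in both AXL KO libraries and 1 count in each WT library, under the limit of 3 counts everywhere, while mt-Nd4 next to it had 4752 and 3636 CPM in AXL KO tumours and 3286 and 4255 CPM in WT tumours. Whether reads of mt-Nd4l were left uncounted because they also touched mt-Nd4 was not tested. mt-Atp8, of which 43 of 204 bases are shared, had 976 and 747 CPM in AXL KO tumours, against 587 and 983 CPM in WT tumours.

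Per kilobase of gene, the cytochrome c oxidase genes and mt-Atp6 were the most abundant. As means over the 4 libraries, mt-Co3 had 8832 CPM per kb, mt-Co1 8069, mt-Atp6 7766 and mt-Co2 6382. mt-Cytb (4134) and mt-Atp8 (4036) came next, ahead of the complex I genes mt-Nd1 (3052), mt-Nd4 (2890), mt-Nd2 (2099), mt-Nd3 (1642) and mt-Nd5 (1368). Neighbours in this order did not all differ: mt-Co3 exceeded mt-Co1 in 3 of the 4 libraries, mt-Co1 exceeded mt-Atp6 in 2, mt-Cytb exceeded mt-Atp8 in 2, mt-Nd1 exceeded mt-Nd4 in 1, and mt-Nd2 over mt-Nd3 and mt-Nd3 over mt-Nd5 held in 3 each. mt-Nd6, the single protein gene on the light strand, had 23.4 CPM per kb, the lowest of the tested genes of this genome in all 4 libraries. Its counts were 236 and 352 in AXL KO libraries and 185 and 321 in WT libraries.

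**Figure D3:**
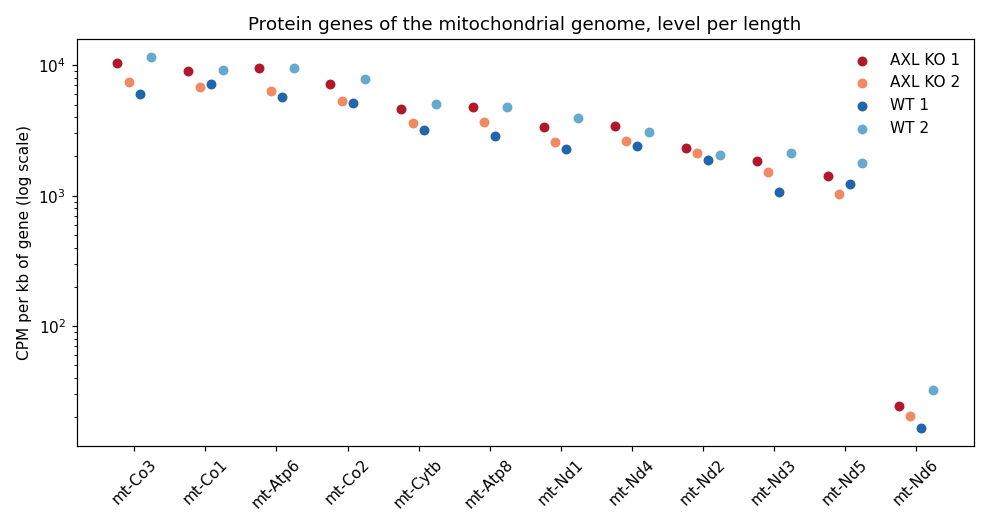
Level of each mitochondrial protein gene other than mt-Nd4l in each library, in CPM per kb of gene on a log axis, ordered by the mean of the 4 libraries, with AXL KO left of WT within each gene. The means run from 8832 for mt-Co3 to 1368 for mt-Nd5, with mt-Nd6 far below at 23.4, and WT replicate 1 is the lowest library for 10 of the 12 genes.

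Between genotypes, mt-Nd2, a membrane subunit of complex I (bases 3914 to 4951), was the one tested mitochondrial gene without overlap, with 2424 and 2199 CPM in AXL KO tumours, against 1956 and 2136 CPM in WT tumours. Its log2 difference was 0.18 ± 0.36. mt-Nd5 had the largest difference in size, −0.30 ± 0.44, with 2586 and 1886 CPM in AXL KO tumours, against 2233 and 3274 CPM in WT tumours. mt-Co1, the catalytic subunit of complex IV (bases 5328 to 6872), had 14031 and 10605 CPM in AXL KO tumours, against 11123 and 14110 CPM in WT tumours, and differed by −0.03 ± 0.92. AXL KO replicate 1 and WT replicate 2 were thus close for mt-Co1, as were the other 2 libraries. mt-Cytb, the complex III subunit of this genome, had 5304 and 4143 CPM in AXL KO tumours, against 3666 and 5806 CPM in WT tumours. Its log2 difference was −0.0039 and became positive with library sizes from nuclear genes only (0.0085). mt-Atp6, the proton channel subunit of ATP synthase, differed by 0.06 ± 0.63.

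The mitochondrial ribosomal RNAs, which are not protein genes, showed WT replicate 2 apart. mt-Rnr1 had 163 and 129 CPM in AXL KO tumours, against 135 and 416 CPM in WT tumours, and mt-Rnr2 had 158 and 109 CPM in AXL KO tumours, against 116 and 656 CPM in WT tumours. In that library both stood far above the other 3, while the tested protein genes exceeded the mean of the other 3 libraries by a median of 0.43 on the log2 scale. How much ribosomal RNA each library kept depends on its preparation, whose selection step is not given in the labels, and its part in the mitochondrial sums was not tested.

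Of the 26 nuclear genes with a negative difference, 11 lie on chromosomes 2, 15 and 18, and no tested member on these chromosomes was positive. All 11 were highest in WT replicate 2 and had a negative log2 difference, with a median of −0.32. They are Ndufa8, Ndufs3, Atp5c1, Atp5e and Atp5g3 on chromosome 2, Ndufa6, Ndufb9, Cox6c and Atp5g2 on chromosome 15, and Ndufa2 and Atp5a1 on chromosome 18. These chromosomes were singled out after their values were seen, so no test is given. The level in WT replicate 2 exceeded the mean of the other 3 libraries by a median of 0.748 on the log2 scale in these 11 genes, with a range from 0.471 to 1.09. In the 66 tested nuclear members on other chromosomes the median was 0.0969 and the range ran from −0.525 to 0.467, so the 2 sets did not overlap.

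The other genes of the 3 chromosomes were offset in the same direction at the median. Over all tested genes, the median of WT replicate 2 over the other 3 libraries was 0.42 on chromosome 2, 0.41 on chromosome 15 and 0.79 on chromosome 18, and between −0.12 and −0.0039 on every other nuclear chromosome. The medians of the members were larger, at 0.61 on chromosome 2, 0.84 on chromosome 15 and 1.08 on chromosome 18. WT replicate 2 was the highest library for 70.2% of the genes on chromosomes 2, 15 and 18 and for 28.4% of those elsewhere in the nucleus. The median log2 difference between genotypes over all genes on the 3 chromosomes was −0.25, beside −0.32 for the members. How much of the members' difference goes with their chromosomes was not tested.

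**Figure D4:**
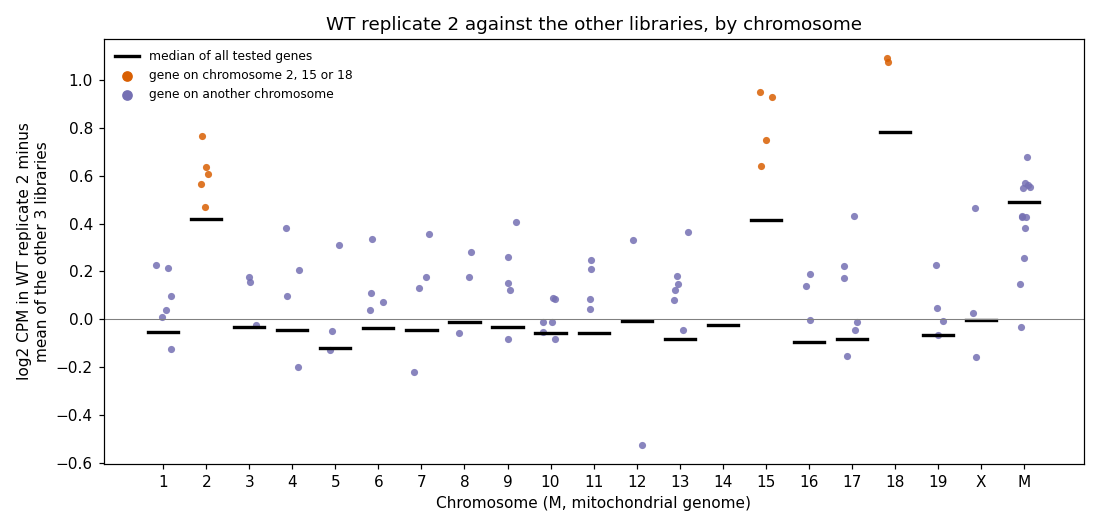
Each point is 1 tested gene of oxidative phosphorylation, placed by chromosome and by its log2 CPM in WT replicate 2 minus its mean over the other 3 libraries, and black bars are medians of all tested genes on that chromosome. On chromosomes 2, 15 and 18 (orange) all points lie at 0.471 or above and the medians of all genes are 0.42, 0.41 and 0.79.

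For pairs of subunits of 1 complex, chosen after their values were seen so that 1 gene lies on chromosome 2, 15 or 18, the ratio of levels was higher in WT replicate 2. Atp5a1 over Atp5b was 0.860 and 0.814 in AXL KO tumours, against 0.853 and 1.67 in WT tumours. Atp5c1 over Atp5b was 0.250 and 0.228 in AXL KO tumours, against 0.233 and 0.379 in WT tumours. Atp5d over Atp5b, both on chromosome 10, was 0.126 and 0.117 in AXL KO tumours and 0.130 and 0.110 in WT tumours. The ratio of these 2 genes on 1 chromosome thus stayed between 0.110 and 0.130 in the 4 libraries, and the others were high in WT replicate 2 alone. No pair from 2 other chromosomes was compared. In complex IV, Cox6c over Cox6a1 was 0.634 and 0.427 in AXL KO tumours, against 0.413 and 1.02 in WT tumours. In complex I, Ndufa6 over Ndufa9 was 0.811 and 0.873 in AXL KO tumours, against 0.784 and 1.49 in WT tumours. Cyc1, the cytochrome c1 of complex III, is on chromosome 15, and its ratio to Uqcrfs1 was 0.501 and 0.595 in AXL KO tumours, against 0.612 and 0.794 in WT tumours. In each of the 5 pairs with a gene on these chromosomes WT replicate 2 had the highest ratio. The upper gene of each such pair was itself highest in that library, so the ratios restate those values and add no separate evidence.

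On the other chromosomes, 51 of the 66 nuclear members had a positive difference, with a median of 0.07. All 12 ATP synthase genes there were positive, from 0.00941 to 0.33. For 69.7% of the 66 genes WT replicate 1 was the lowest library, against 21.8% of all genes on those chromosomes, and for 48.5% AXL KO replicate 1 was the highest, against 27.2%. The members share the same 4 libraries, so a shared sign among them is not a count of independent observations. Both AXL KO tumours lay above both WT tumours for 11 of the 66 genes (16.7%), close to the 16.1% of all genes on those chromosomes, and below for 3 (4.55%), against 12.2%.

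Some promoters of nuclear members hold sequence elements that the selection by name did not use, though most lack any given one of the 4 specific elements below. Of the 82 nuclear members, 64 matched the RefSeq promoter table (GRCm38.p6) with 69 windows, each from 250 bases before to 50 bases after a transcription start. The NRF1 element, searched on both strands as GCGC, any pair of bases and GCGC again, was found in 27.5% of these windows, against 6.23% of all 32851 windows. The ETS element bound by GABPA, searched as CCGGAAG, was found in 23.2% against 8.86%. YY1's AAGATGGCG was found in 10.1% against 1.4%, and the ESRRA element CAAGGTCA in 5.80% against 1.56%. The general elements CCAAT (42.0% against 37.4%) and TATAAA (10.1% against 13.6%) differed less. NRF1, GABPA, YY1 and ESRRA are known as transcription factors of nuclear genes for mitochondrial proteins. No test of these shares was made, and a match is a string of letters in the window that says nothing about binding in these tumours.

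For 3 members with many reads, the 150 bases before the gene are shown to set promoters with NRF1 matches beside 1 without. The stretches of Ndufa4 and Uqcrfs1, cut in the same way, held no match to any of the elements and are not shown. Each stretch ends at the outer of the RefSeq start and the GENCODE M21 gene boundary, positions are counted back from its end, and capitals mark the matches to the elements searched. Sdha (chr13:74350281-74350430, minus strand) held 2 NRF1 matches, which begin 58 and 15 bases before the end, and 1 CCAAT match on the opposite strand. Cox6a1 (chr5:115348982-115349131, minus strand) held 2 NRF1 matches, which begin 139 and 94 bases before the end, and 1 CCAAT match. Atp5b (chr10:128083123-128083272, plus strand) held 3 CCAAT matches, 1 of them on the opposite strand, and none to the other elements.
Sdha: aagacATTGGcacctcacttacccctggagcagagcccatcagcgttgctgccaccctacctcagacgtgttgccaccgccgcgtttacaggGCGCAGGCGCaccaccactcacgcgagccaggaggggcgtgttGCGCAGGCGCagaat
Cox6a1: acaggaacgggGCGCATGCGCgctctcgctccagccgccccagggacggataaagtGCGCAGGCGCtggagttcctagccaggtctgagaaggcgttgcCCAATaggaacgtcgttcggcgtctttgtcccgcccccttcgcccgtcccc
Atp5b: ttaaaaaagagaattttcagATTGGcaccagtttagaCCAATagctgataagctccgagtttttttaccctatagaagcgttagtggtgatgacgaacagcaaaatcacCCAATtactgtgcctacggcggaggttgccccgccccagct

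Lists of genes around the respiratory chain had 0 calls by the edgeR test. The factors that assemble complex I (10 of 18 positive, median 0.06), complexes II, III and V (11 of 15, 0.08) and complex IV (15 of 22, 0.13) leaned slightly to positive values. Cox16, an assembly factor of complex IV, had 15.5 and 12.7 CPM in AXL KO tumours, against 10.01 and 8.01 CPM in WT tumours, a log2 difference of 0.64 ± 0.29 without overlap. Electron carriers and coenzyme Q synthesis had 6 of 17 positive (median −0.05), regulators of mitochondrial biogenesis 6 of 14 (−0.07) and the TCA cycle 4 of 14 (−0.03).

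The apparatus that expresses the mitochondrial genome was also near 0. Mitochondrial DNA replication and transcription had 10 of 17 positive (median 0.03), mitochondrial RNA processing 12 of 19 (0.01) and the mitochondrial ribosome 43 of 76 (0.03). Pnpt1, an exonuclease that takes part in mitochondrial RNA turnover, had 63.8 and 55.5 CPM in AXL KO tumours, against 41.5 and 41.0 CPM in WT tumours. Its groups were separate, with a log2 difference of 0.53 ± 0.18 and an unadjusted edgeR p of 0.0302, which did not survive adjustment (0.9997). Mtpap, the mitochondrial poly(A) polymerase on chromosome 18, had 34.3 and 34.4 CPM in AXL KO tumours, against 36.4 and 77.4 CPM in WT tumours, high in WT replicate 2 alone. Cristae organisation had 7 of 11 positive (median 0.01), and the carriers of ATP, phosphate and protons 3 of 8 (−0.04).

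In the list for pyruvate entry 9 of 13 genes were positive (median 0.08). Pdk4, which inhibits pyruvate dehydrogenase, had 7.90 and 11.6 CPM in AXL KO tumours, against 5.84 and 2.04 CPM in WT tumours. Pdp2, a phosphatase that reactivates the same enzyme, had 6.25 and 8.01 CPM in AXL KO tumours, against 3.88 and 3.77 CPM in WT tumours, with unadjusted edgeR p-values of 0.0682 for Pdk4 and 0.0402 for Pdp2. An inhibitor and an activator thus both had higher values in AXL KO tumours, and neither passed adjustment.

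Genes that shift respiration under low oxygen had the most negative median of the lists, −0.44, with 3 of 17 positive. WT replicate 2 was the highest library for 13 of these 17 genes. Ndrg1, a stress and hypoxia gene on chromosome 15, had 8.44 and 9.96 CPM in AXL KO tumours, against 12.1 and 275 CPM in WT tumours. Higd1a, a hypoxia-induced inner membrane protein on chromosome 9, had 9.99 and 10.8 CPM in AXL KO tumours, against 14.8 and 57.4 CPM in WT tumours. Without WT replicate 2 the log2 differences of these genes were −0.39 for Ndrg1, against −3.96 with it, and −0.52 for Higd1a, against −1.80. Ldha, which turns pyruvate into lactate, had 782 and 456 CPM in AXL KO tumours, against 568 and 1093 CPM in WT tumours. The part of this difference of WT replicate 2 in the level of its respiratory genes was not tested.

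Markers of tissues rich in mitochondria were low but not equal between libraries. The 8 brown fat markers summed to 50.8 and 39.8 CPM in AXL KO tumours, against 33.0 and 15.7 CPM in WT tumours, and all 6 that could be tested had a positive difference. They include the isoforms that the choice of genes left out: Cox7a1 had 17.8 and 13.7 CPM in AXL KO tumours, against 10.8 and 3.82 CPM in WT tumours, and Cox8b had 7.48 and 3.54 CPM in AXL KO tumours, against 3.55 and 0.524 CPM in WT tumours. Both were lowest in WT replicate 2, the library with the highest mitochondrial sum and the highest sum over all 82 nuclear members. Ucp1, the uncoupling protein that defines brown fat, had 110 and 32 counts in AXL KO tumours, against 2 and 0 in WT tumours. It passed the read filter only through the AXL KO libraries, so its positive sign was fixed by the filter. DESeq2 called Ucp1 with an adjusted p of 0.0423, and edgeR did not (unadjusted p = 0.00549, adjusted 0.9997). Elovl3, another brown fat gene, had 0.427 and 0.0600 CPM in AXL KO tumours and 0 in both WT tumours. The groups overlapped for 3 of the 6 tested markers, Cox8b, Dio2 and Pank1. Pank1 had 15.3 and 16.7 CPM in AXL KO tumours, against 17.4 and 8.01 CPM in WT tumours. Kng2, too low to test, had 0.160 and 0.270 CPM in AXL KO tumours, against 0.187 and 0.471 CPM in WT tumours.

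The 10 muscle markers summed to 16.1 and 23.1 CPM in AXL KO tumours, against 22.9 and 6.28 CPM in WT tumours, most of it myoglobin. Ckm had 23 and 30 counts in AXL KO tumours, against 18 and 15 in WT tumours. Actn2 had 2 and 16 counts in AXL KO tumours, against 7 and 1 in WT tumours. Acta1, Myl1, Myh1 and Cox6a2 had at most 5 counts in any library, and Ckmt2, Myh4 and Tnnt3 were at 0 in all 4 libraries. The 7 white fat markers summed to 131 and 140 CPM in AXL KO tumours, against 85.8 and 165 CPM in WT tumours. WT replicate 1 was the lowest library for 5 of the 7 and WT replicate 2 the highest for 4. Lep was highest in WT replicate 1, Retn in AXL KO replicate 1 and Plin1 in AXL KO replicate 2. The 4 macrophage markers summed to 128 and 193 CPM in AXL KO tumours, against 187 and 118 CPM in WT tumours. The 4 T cell markers summed to 8.76 and 12.2 CPM in AXL KO tumours, against 18.1 and 2.25 CPM in WT tumours. These immune sums were lowest in WT replicate 2. The 3 endothelial markers summed to 69.3 and 90.8 CPM in AXL KO tumours, against 82.4 and 77.2 CPM in WT tumours. The 8 luminal markers summed to 3794 and 3738 CPM in AXL KO tumours and 4020 and 4477 CPM in WT tumours. Single luminal markers differed in direction: WT replicate 2 was the highest library for 3 of the 8 and the lowest for 4. It was highest for Erbb3 and for Krt18 and Krt8, both on chromosome 15, and lowest for Epcam, Cdh1, Cldn3 and Cldn4. The part of these cell types in the levels of the respiratory genes was not tested.

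Some members have close copies, and their values are less certain. Reads that align to more than 1 place took 25.6% and 24.6% of all counts in the AXL KO files and 23.2% and 28.1% in the WT files and were not assigned to genes. Ndufb4c, a copy of Ndufb4, had 4.38 and 3.66 CPM in AXL KO tumours and 2.06 and 3.61 CPM in WT tumours, and Ndufs6b, a copy of Ndufs6, had 0.801 and 0.540 CPM in AXL KO tumours and 0.374 and 0.471 CPM in WT tumours. Subunits with many processed copies in the genome could lose reads in this way, and this was not tested.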

How the data were processed

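The values deposited by the authors are raw counts, whole numbers of reads for each gene in each library. Per the submitters' processing notes, the tools were CASAVA 1.8, TopHat2 2.0.10, DESeq2 1.4.5 and HTSeq 0.5.3, the build was GRCm38, and no roles are stated. Annotation release, strand setting and filtering of reads: not given in the sources used here. Besides 38293 genes, a file has 5 summary lines, which held 29.4% to 35.6% of all counts and stayed out of library sizes and tests.

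Groups and replicate numbers came from the sample titles. Symbols, positions and exon lengths came from GENCODE M21, which named 36345 of the gene identifiers. Genes were kept by edgeR's filterByExpr (14330 genes) and tested in R 4.3.3 with edgeR 4.0.16 (TMM, quasi-likelihood F-test, Benjamini-Hochberg, threshold 0.05). The standard error of a log2 difference was its size divided by the square root of F. Log2 levels of single libraries used a prior count of 2. Intervals have a confidence level of 95%. DESeq2 1.42.0, limma-voom (limma 3.58.1), other normalisations and filters, the replicate number as a block and leaving out each library were tried as alternatives. The fits were tested on simulated data with 200 changed genes, whose changes were larger than the difference of any tested member. That test does not show how well differences as small as those of the members are found.

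The members and the gene lists were chosen with earlier results of these data known. Genes named in the text were Axl, the mitochondrial protein genes, in each nuclear complex the member with the most reads and the 3 with the smallest p, tissue isoforms, and in each list the gene with the most reads and the 2 with the smallest p. Further genes named as examples (among them Ndufa2, subunit pairs in ratios and ribosomal RNAs) were chosen after their values were seen. A few single-gene values are not reported here. CPM floors of 3 counts cover counting error only.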

Additional observations from a re-analysis of the deposited data

How the results depend on the processing

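The choice of processing left the 89 members at 0 calls in all 12 alternatives. The count over all tested genes was 0 in 10 of them, 16 with the DESeq2 test and 246 without WT replicate 1 (148 higher and 98 lower in AXL KO), so leaving out 1 library in turn gave 0 to 246. Without WT replicate 1, 11 of 90 tested members had an unadjusted p under 0.05, as had 3005 of all 14849 genes. Leaving out a library that leaves a group with 1 sample assumes that the lone sample varies like the other group. The nuclear median log2 difference lay between −0.06 and 0.20 over the alternatives and the mitochondrial one between −0.30 and 0.37. It was 0.07 for nuclear members without those of chromosomes 2, 15 and 18, an alternative added after seeing the data.

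The correlation of same-numbered deviations was −0.045. With 2 libraries a group this is a single value, which cannot show whether the replicate numbers pair the samples. With the replicate block, 0 genes were called, the nuclear median was 0.05 and mt-Cytb had a difference of 0.023. mt-Cytb was also positive with library sizes from nuclear genes (0.0085), without a low-count filter (0.0030) and with limma-voom (0.031), and mt-Co3 was negative with library totals (−0.0014).

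Of 935 values of 78 named genes under the alternatives, 870 kept their direction and side of the threshold, 5 newly passed it (Axl and Ucp1 with DESeq2, and Axl, Ndrg1 and Higd1a without WT replicate 1) and 60 changed sign, in 36 genes. Leaving out 1 library at a time gave these ranges of log2 differences for genes that changed sign. Mitochondrial: mt-Nd1 −0.41 to 0.37, mt-Nd3 −0.32 to 0.65, mt-Nd4 −0.055 to 0.35, mt-Nd6 −0.53 to 0.41, mt-Cytb −0.29 to 0.36, mt-Co1 −0.25 to 0.14, mt-Co2 −0.31 to 0.30, mt-Co3 −0.36 to 0.56, mt-Atp6 −0.27 to 0.46 and mt-Atp8 −0.18 to 0.55. Nuclear members: Ndufa4 −0.19 to 0.39, Sdha −0.0090 to 0.093, Sdhb −0.19 to 0.015, Uqcrc2 −0.14 to 0.29, Uqcrb −0.057 to 0.38, Cox6c −0.79 to 0.41, Cox6b1 −0.018 to 0.30, Atp5a1 −1.04 to 0.066, Atp5c1 −0.71 to 0.13, Cox7a2 −0.25 to 0.44, Cox7a2l −0.17 to 0.12, Cox7b −0.25 to 0.60, Atp5g2 −0.69 to 0.13, Atp5g3 −0.53 to 0.078 and Atp5e −0.51 to 0.28. Genes of the other lists: Ndufaf5 −0.93 to 0.16, Acad9 −0.089 to 0.22, Atpif1 −0.63 to 0.17, Coa5 −0.12 to 0.53, Myc −0.26 to 0.024, Polg −0.22 to 0.11, Grsf1 −0.078 to 0.022, Mrps6 −0.15 to 0.077, Pdha1 −0.061 to 0.20, Ucp2 −0.55 to 0.29 and Ldha −0.86 to 0.12. The 42 remaining named genes kept their sign in all alternatives that gave them a value. The cause of the sign changes was not tested, and with 2 libraries a group each library carries a group's mean with 1 other. Counts of mt-Nd4l and the rare isoforms were too low to test.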
